A study of Mus musculus with 8 samples.

Results

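The 7 genes described here make, package, take up and degrade the inhibitory transmitter GABA or carry the chloride on which its action depends. They are Gad1, Gad2, Slc32a1, Slc6a11, Abat, Slc12a2 and Slc12a5, chosen by name from the 32543 rows of the deposited tables, and all 7 were found and tested. RNA was sequenced from GFP-positive cells sorted from the amygdala of mouse embryos at E16.5 (embryonic day), in 4 knockout libraries (Tshz1GFP/RA) and 4 control libraries (Tshz1GFP/+). Every embryo therefore carried 1 GFP allele of Tshz1, a zinc finger transcription factor gene, and knockouts carried the RA allele in place of the wild-type one; the labels do not say what RA changes. The mice were of an outbred background, each library is a pool of embryos of 1 genotype, and the sort selects any dissected cell with GFP. Library titles begin with NX, NY, QT or RM, each shared by 1 knockout and 1 control library, and the labels do not say what these prefixes mark.

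The sorted population is labelled as amygdala intercalated cells, clusters of GABAergic neurons around the basolateral amygdala. GABA is made from glutamate by the enzymes GAD67 (Gad1) and GAD65 (Gad2), loaded into synaptic vesicles by VGAT (Slc32a1), cleared by plasma membrane transporters such as GAT3 (Slc6a11), and broken down by GABA transaminase (Abat). Whether GABA hyperpolarises a neuron depends on its internal chloride, which NKCC1 (Slc12a2) brings in and KCC2 (Slc12a5) takes out. Forebrain neurons lower NKCC1 relative to KCC2 as they mature, so the ratio of their transcripts is commonly read as a sign of maturity.

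For orientation, the sequences before the annotated start sites are shown for Slc32a1, the member with the smallest p in the comparison of genotypes, and for Slc12a5, for which RefSeq lists 2 starts. All are from RefSeq (GRCm38.p6, plus strand, 5′ to 3′), and bases inside an annotated exon of the gene were left off. Capitals mark CACGTG, a form of the E-box, a sequence bound by basic helix-loop-helix proteins. Other E-box forms in these sequences were left in lower case.
Slc32a1, chr2:158610508-158610757: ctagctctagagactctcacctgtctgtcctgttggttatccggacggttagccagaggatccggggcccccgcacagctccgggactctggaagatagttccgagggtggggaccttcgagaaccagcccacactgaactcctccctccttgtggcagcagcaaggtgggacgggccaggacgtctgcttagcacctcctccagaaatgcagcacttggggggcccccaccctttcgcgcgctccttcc
Slc12a5, first start, chr2:164960596-164960801: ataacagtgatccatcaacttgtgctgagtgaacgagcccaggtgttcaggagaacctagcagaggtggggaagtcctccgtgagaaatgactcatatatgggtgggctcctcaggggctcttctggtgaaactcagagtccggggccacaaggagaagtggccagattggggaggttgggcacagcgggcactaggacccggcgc
Slc12a5, second start, chr2:164967738-164967982: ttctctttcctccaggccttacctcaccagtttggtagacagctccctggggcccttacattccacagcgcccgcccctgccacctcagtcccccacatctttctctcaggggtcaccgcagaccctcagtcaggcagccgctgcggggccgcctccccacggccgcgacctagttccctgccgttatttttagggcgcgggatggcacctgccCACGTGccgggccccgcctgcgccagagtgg

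RefSeq start windows (250 bases before to 50 after the start) were at hand for 5 of the 7 members, in 6 entries. They were searched on both strands for CACGTG, for the E-box CAGCTG, for the homeodomain core TAATTA and for TGACAG, a core bound by MEIS proteins. The single match among the 6 was the CACGTG at -36 from the second Slc12a5 start, which overlaps no other motif searched. Of all 32851 such windows, 7.15% hold CACGTG, 16.3% CAGCTG, 5.29% TAATTA and 19.2% TGACAG. The files give 1 value per gene, so the use of the 2 Slc12a5 starts was not measured.

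Library totals ran from 5785549 to 14535810 expected counts, and members had between 26 counts (Slc6a11, knockout QT) and 28265 counts (Gad2, control NX). Tshz1 stood at 55.9 to 121 CPM (counts scaled to library size) in knockout and 240.0 to 492 CPM in control libraries (log2 fold change -2.27, SE 0.30, edgeR quasi-likelihood adjusted p = 0.0388). The 9 intercalated cell markers, among them Tshz1 itself and the members Gad1 and Gad2, were detected in both genotypes. All 9 were fitted lower, as were 7158 of the 14157 genes tested, and Tshz1 alone was called (adjusted p under 0.05). The 9 markers summed to 2711 to 3643 CPM in knockout and 2989 to 5218 CPM in control libraries. Markers of other cells were also present: 12 radial glia and astrocyte genes summed to 311 to 973 CPM in knockout and 111 to 737 CPM in control libraries. The 10 cycling cell genes, 9 of them fitted higher and none called, summed to 169 CPM in NX, 1288 in NY, 1119 in QT and 1083 in RM of the knockout, against 133 in NX, 501 in NY, 794 in QT and 481 in RM of the control, and were higher in the knockout within all 4 prefixes. The 8 glutamatergic neuron genes, 6 of them fitted higher and none called, summed to 175 CPM in NX, 323 in NY, 526 in QT and 355 in RM of the knockout, against 43.6 in NX, 381 in NY, 334 in QT and 247 in RM of the control. That sum was higher in the knockout within NX, QT and RM and lower within NY. The 10 microglial genes summed to 9.06 to 54.7 CPM in knockout and 4.71 to 129 CPM in control libraries. The 10 vascular and meningeal genes summed to 2.996 to 11.1 CPM in knockout and 1.36 to 43.2 CPM in control libraries. The 7 choroid plexus and ependyma genes summed to 6.29 to 18.3 CPM in knockout and 5.74 to 17.3 CPM in control libraries. Within these lists, only Lum (vascular and meningeal) and Folr1 and Tmem212 (choroid plexus and ependyma) had 0 counts in all 8 libraries. In pooled RNA, fewer cells of a type and less RNA per cell cannot be told apart. The 3 rows AK140265, GU332589 and AK155692 held 26.3% to 57.7% of the TPM of knockout and 28.0% to 49.7% of control libraries, highest in RM of each genotype. TPM, a level per transcript length, was therefore used to compare genes within a library, and CPM scaled by TMM, a composition factor, to compare libraries.

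None of the 7 genes passed the test between genotypes at an adjusted p under 0.05, where 0.0353% of 14157 tested genes did, 0.0283% lower and 0.00706% higher (edgeR quasi-likelihood, Benjamini-Hochberg over all genes). DESeq2 and limma called none of the 7 either. All 7 fitted log2 fold changes were below 0, from -0.56 for Slc32a1 to -0.02 for Slc12a2, with a median of -0.12 against -0.01 over all genes tested. Adjusted p was 1.00 for each. Slc32a1 alone had an unadjusted p under 0.05, on the lower side, as did 3.62% of all genes tested, 1.91% lower and 1.7% higher. For none of the 7 did the CPM of the genotypes fail to overlap, against 2.59% of all genes tested, 1.46% lower and 1.13% higher. The fits left room for sizeable differences, and an adjusted p above the threshold does not show equal levels.

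**Figure D1:**
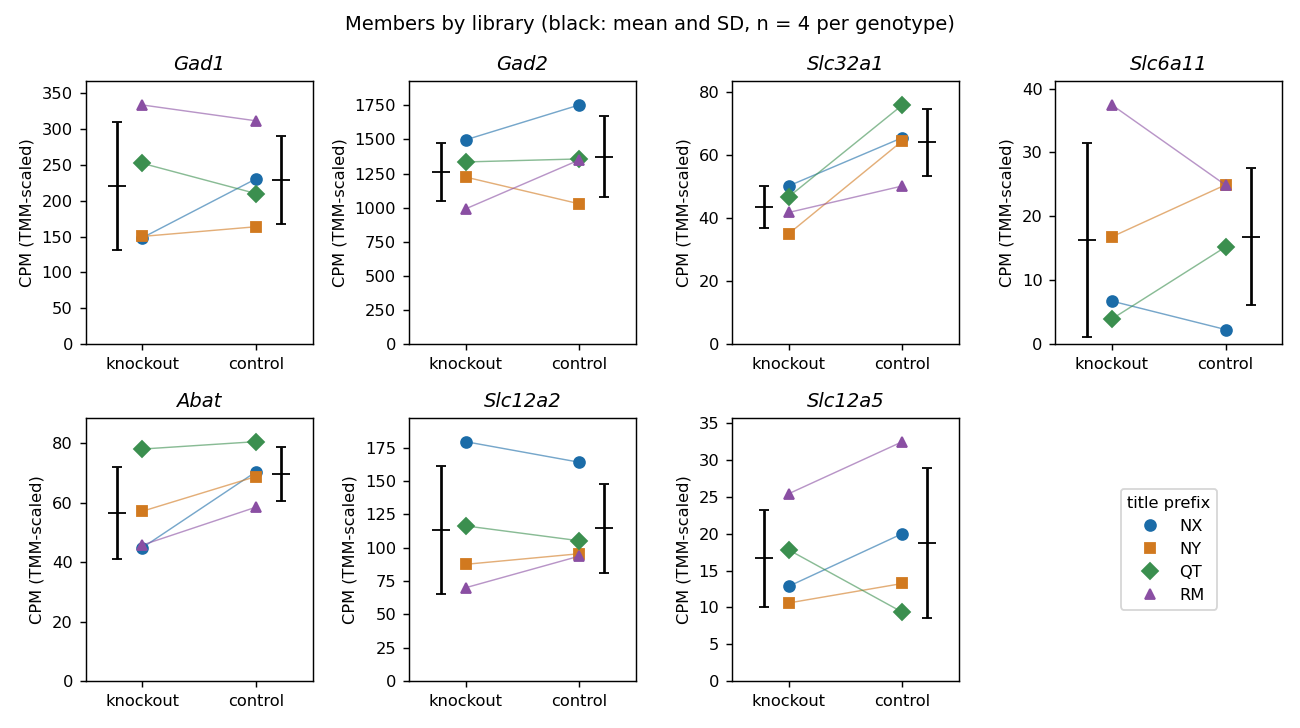
TMM-scaled CPM of each gene in the 4 knockout (left) and 4 control (right) libraries, with a line joining libraries of 1 title prefix and black bars for the mean and SD. Slc32a1 averages 43.4 CPM in knockout and 64.0 CPM in control libraries, while the other 6 genes overlap more widely.

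Gad2, which encodes the GAD65 enzyme of nerve terminals, was the most abundant of the 7 per length, at 442 ± 176 TPM in knockout and 482 ± 165 TPM in control libraries (SD, n = 4 each). It ranked between 118 and 182 among all rows of the knockout tables and between 121 and 209 in control tables. On the CPM scale its knockout values were 1497 in NX, 1224 in NY, 1335 in QT and 991 in RM, against control values of 1752 in NX, 1028 in NY, 1357 in QT and 1349.5 in RM. The ranges overlapped, with the highest value in control NX and the lowest in knockout RM. The fit gave a log2 fold change of -0.12 (SE 0.23), with a 95% interval from -0.62 to 0.38, and the knockout was lower in 3 of 4 prefixes.

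Gad1, which encodes GAD67, the enzyme that supplies most of the cell's GABA, averaged 149 ± 44.6 TPM in knockout and 162 ± 33.5 TPM in control libraries (SD, n = 4 each). Its knockout values were 148 in NX, 150.3 in NY, 252 in QT and 334 CPM in RM, against control values of 231 in NX, 164 in NY, 210.0 in QT and 311 CPM in RM. Levels were highest in RM in both genotypes, the reverse of Gad2 among knockouts, where RM was lowest. The knockout was lower within NX (-0.63 on the log2 scale) and NY (-0.12) and higher within QT (0.26) and RM (0.10). The fitted log2 fold change was -0.05 (SE 0.29, 95% interval -0.68 to 0.58). The Gad1 row pools 6 transcripts, and the mean transcript length that RSEM estimated for it ran from 2579 to 2865 bases in knockout and from 2657 to 2832 bases in control libraries, with overlap between genotypes.

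Gad2 exceeded Gad1 in every library. The ratio of their TPM was 5.01 in NX, 4.03 in NY, 2.37 in QT and 1.40 in RM in knockout libraries, against 3.78 in NX, 2.95 in NY, 3.07 in QT and 2.08 in RM in control libraries. Knockout values spread wider, on either side of the controls: they were higher within NX and NY and lower within QT and RM. The mean log2 ratio was 1.52 ± 0.83 in knockout and 1.54 ± 0.36 in control libraries (SD, n = 4 each), a difference of -0.02 with an exact two-sided permutation p of 1.00 over 70 assignments. Shifts from -1.43 to 1.26 log2 units were kept at the 0.05 level by the same test.

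Slc32a1, the vesicular GABA transporter, had the clearest difference of the 7. It stood at 50.18 in NX, 35.0 in NY, 46.7 in QT and 41.8 CPM in RM in knockout libraries, against 65.5 in NX, 64.5 in NY, 75.8 in QT and 50.16 CPM in RM in control libraries. The genotypes touched at 1 point only, where knockout NX and control RM were almost equal. Means were 43.4 ± 6.58 CPM in knockout and 64.0 ± 10.6 CPM in control libraries (SD, n = 4 each), and the fitted knockout level was 0.678 of control, with a 95% interval from 0.493 to 0.933. The log2 fold change of Slc32a1 was -0.56 (SE 0.21), with an unadjusted p of 0.0209 and, after Benjamini-Hochberg, an adjusted p of 1.00 (edgeR quasi-likelihood). It was lower within all 4 prefixes, as were 8.49% of all genes tested, with log2 differences of -0.38 in NX, -0.88 in NY, -0.70 in QT and -0.26 in RM. By rank of TPM within a library, which no scaling between libraries alters, it lay from 3298 to 4345 in knockout and from 2136 to 2995 in control libraries. These rank ranges did not overlap, as for 1.55% of all genes tested in that direction. The antisense gene Gm14205 overlaps Slc32a1 exons. The labels do not state strand, and without it overlapping fragments of the 2 genes cannot be told apart. The cycling cell sum was higher in the knockout within all 4 prefixes. Knockout sums were 169 CPM in NX, 1288 in NY, 1119 in QT and 1083 in RM. Control sums were 133, 501, 794 and 481 CPM in the same order. Both the cycling sums and Slc32a1 differed most in NY. The cycling sums differed least in NX, while Slc32a1 differed least in RM. The glutamatergic sum was higher in the knockout within NX, QT and RM and lower within NY. The 9 intercalated cell markers were fitted lower, as were 7158 of the 14157 genes tested. That list holds Tshz1 itself and the members Gad1 and Gad2. Of these markers, only Tshz1, Foxp2 and Erbb4 were lower in every prefix. Pax6 was higher in the knockout within NX and NY, and Gad2 within NY. Oprm1 and Gad1 were higher in the knockout within QT and RM, and Meis2 and Drd1 within QT. The part of cell makeup in the Slc32a1 values was not tested. Slc32a1 was below Gad2 and Gad1 in TPM in 8 of 8 libraries.

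**Figure D2:**
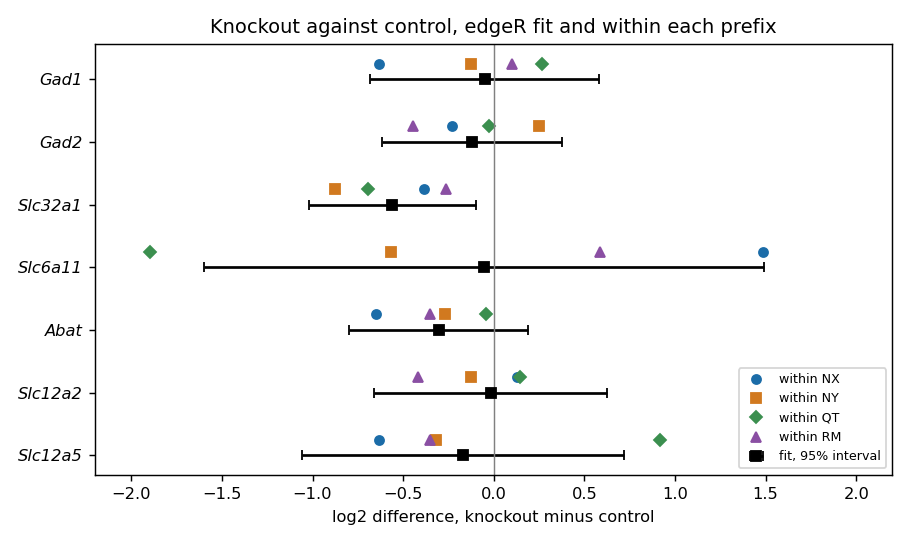
Log2 difference of knockout minus control for each gene: black squares are the edgeR fit with its 95% interval, and coloured points the difference of log2 CPM within each title prefix. The 4 prefixes of Slc32a1 and of Abat all lie below 0, as for 8.49% of all genes tested, while Slc6a11 spans -1.90 to 1.48.

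Abat, the mitochondrial enzyme that begins GABA breakdown, had 44.9 in NX, 57.1 in NY, 78.1 in QT and 45.8 CPM in RM in knockout libraries, against 70.4 in NX, 68.8 in NY, 80.6 in QT and 58.5 CPM in RM in control libraries. It too was lower in 4 of 4 prefixes, as were 8.49% of all genes tested. The gap was widest in NX (-0.65 log2 units) and narrowest in QT (-0.05). The cycling cell sums, higher in the knockout in every prefix, differed least in NX (169 CPM against 133 CPM in control). They differed most in NY (1288 CPM against 501 CPM in control), and their part in the Abat values was not tested. The genotypes overlapped because knockout QT was higher than 3 control libraries. Means were 56.5 ± 15.5 CPM in knockout and 69.6 ± 9.03 CPM in control libraries (SD, n = 4 each). The fit gave a log2 fold change of -0.30 (SE 0.23), with a 95% interval from -0.80 to 0.19 and an unadjusted edgeR p of 0.206.

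Slc6a11, the GABA transporter GAT3 found mainly on astrocytes in the adult brain, was the most variable member. Its knockout values were 6.74 in NX, 16.8 in NY, 3.96 in QT and 37.4 CPM in RM, against control values of 2.29 in NX, 24.9 in NY, 15.2 in QT and 24.9 CPM in RM. The highest library exceeded the lowest 16.3-fold, with control NX and knockout QT low and knockout RM high. The fit gave a log2 fold change of -0.05 (SE 0.71), and its interval from -1.60 to 1.49 covered large differences in either direction. The 12 radial glia and astrocyte markers summed to 311 in NX, 566 in NY, 402 in QT and 973 CPM in RM in knockout libraries, against 111 in NX, 737 in NY, 410.2 in QT and 695 CPM in RM in control libraries. Control NX was lowest in Slc6a11 and in this sum, and knockout RM was highest in both; the part of these cells in the Slc6a11 values was not tested.

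Slc12a2, the chloride importer NKCC1, had 179 in NX, 87.5 in NY, 116 in QT and 69.9 CPM in RM in knockout libraries, against 164 in NX, 95.4 in NY, 105 in QT and 93.6 CPM in RM in control libraries. The NX library was the highest in each genotype and the RM library the lowest. Means were 113 ± 48.1 CPM in knockout and 115 ± 33.4 CPM in control libraries (SD, n = 4 each). The fit gave a log2 fold change of -0.02 (SE 0.30), with a 95% interval from -0.66 to 0.63. Slc12a5, the chloride exporter KCC2, was much scarcer, with 12.9 in NX, 10.6 in NY, 17.8 in QT and 25.5 CPM in RM in knockout libraries. Its control values were 20.03 in NX, 13.2 in NY, 9.34 in QT and 32.5 CPM in RM. Here RM was the highest in each genotype, and QT was the prefix in which knockout exceeded control. The log2 fold change of Slc12a5 was -0.17 (SE 0.41, 95% interval -1.06 to 0.72), from 117 to 323 counts per library.

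Slc12a2 exceeded Slc12a5 per length in every library of both genotypes. The ratio of TPM was 12.1 in NX, 7.37 in NY, 5.67 in QT and 2.38 in RM in knockout libraries, against 7.17 in NX, 6.41 in NY, 9.77 in QT and 2.53 in RM in control libraries. The 2 RM libraries were the lowest of their genotypes, and knockouts were higher within NX and NY and lower within QT and RM. The mean log2 ratio was 2.56 ± 0.98 in knockout and 2.54 ± 0.84 in control libraries (SD, n = 4 each), which correspond to ratios of 5.89 and 5.81. The difference was 0.02 log2 units, with an exact two-sided permutation p of 0.971, and the p adjusted over this ratio and that of Gad2 to Gad1 was 1.00. Shifts from -2.03 to 2.25 log2 units were kept at the 0.05 level by this test, which takes no account of the title prefix. Within prefixes the log2 differences of knockout minus control were 0.76 in NX, 0.20 in NY, -0.79 in QT and -0.09 in RM, of both signs. The title prefix held 87.6% of the variance of the log2 ratio and genotype 0.0176%.

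**Figure D3:**
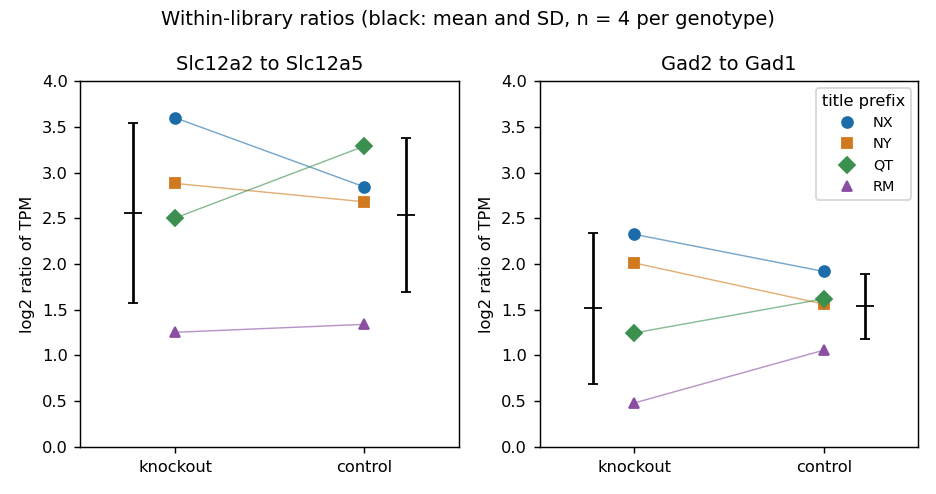
Log2 ratio of TPM within each library for Slc12a2 to Slc12a5 (left) and Gad2 to Gad1 (right), knockout left of control in each panel, lines joining libraries of 1 title prefix, black bars for the mean and SD. Means of the 2 genotypes differ by 0.02 log2 units for the first ratio and -0.02 for the second, and RM is lowest in each genotype for both.

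Other measures also differed between prefixes, but not always in the same order. Among controls, the ratio of Slc12a2 to Slc12a5 was highest in QT (9.77). The highest radial glia and astrocyte sum among controls was in NY (737 CPM), where the ratio was 6.41. RM, the prefix with the lowest Slc12a2 to Slc12a5 ratio, had the highest radial glia and astrocyte sum among knockouts (973 CPM) and the second to NY among controls (695 CPM), and the largest share of TPM in the 3 dominant rows (57.7% in knockout and 49.7% in control). NX, with the highest Slc12a2 in each genotype, had the lowest cycling cell sums, at 169 CPM in knockout and 133 CPM in control libraries, where the other 6 libraries had 481 to 1288 CPM. NX was lowest as well in the glutamatergic neuron sums (175 CPM in knockout and 43.6 CPM in control) and in the radial glia and astrocyte sums (311 CPM in knockout and 111 CPM in control). NX also had the lowest shares of the dominant rows, at 26.3% in knockout and 28.0% in control. The part of any of these in the member values was not tested.

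By median TPM over the 8 libraries the order was Gad2 (453), Gad1 (160.2), Slc32a1 (38.8), Slc12a2 (29.0), Abat (25.8), Slc6a11 (7.70) and Slc12a5 (5.29). Gad2 over Gad1, Gad1 over Slc32a1, and Abat over Slc6a11 held in 8 of 8 libraries. Slc32a1 was above Slc12a2 in 4 of 8, 1 of them knockout and 3 control. Slc12a2 was above Abat in 6 of 8, 4 of them knockout and 2 control. Slc6a11 was above Slc12a5 in 5 of 8, 2 of them knockout and 3 control. The TPM ranges of the genes in these last pairs overlapped over the libraries, and the order within a library was not tested.

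The members differed in how their variance over the 8 libraries divided between genotype and title prefix. Prefix held 92.2% of the variance of log2 CPM for Slc12a2, 82.9% for Gad1, 76.2% for Slc6a11, 72.8% for Slc12a5 and 69.2% for Gad2, against a median of 56.0% over all genes tested. Genotype held 64.8% for Slc32a1 and 29.4% for Abat, and 0.142% to 4.85% for the other 5, against a median of 7.85%. The overall spread was narrowest for Gad2, with an SD of 0.27 log2 units, and widest for Slc6a11, at 1.39, around a median of 0.51 for all genes tested. Prefix has 4 levels and genotype 2, so a larger share for prefix is usual, and the shares are a description without a test.

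**Figure D4:**
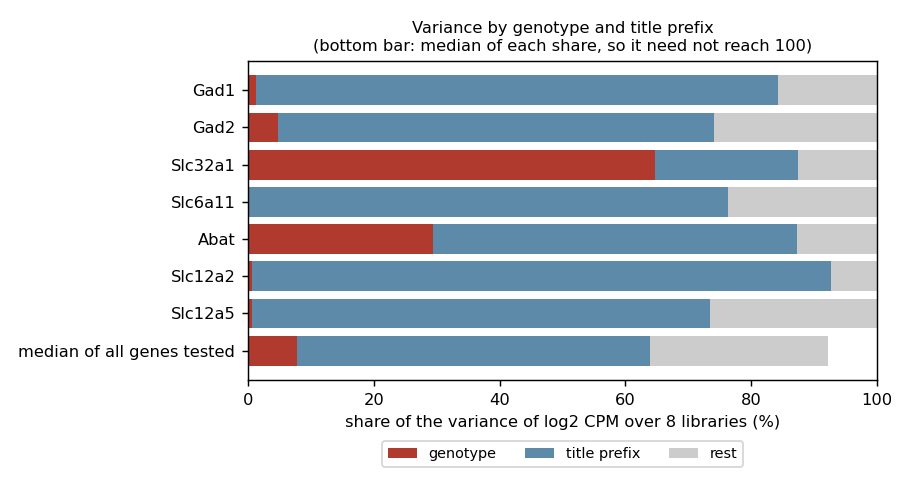
Share of the variance of log2 CPM over the 8 libraries held by genotype, by title prefix and by the rest, for each gene, with the medians of all genes tested in the bottom bar. Genotype holds 64.8% for Slc32a1 and 29.4% for Abat, and 4.85% or less for the other 5 genes.

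None of the other genes of the pathway lists passed over all genes in either direction, by edgeR, DESeq2 or limma. Unadjusted edgeR p was under 0.05 for Slc1a1, Slc4a8, Eno2 and Kcnc1, fitted lower, and for Slc18a2 and Stk39, fitted higher. Of all genes tested, 3.62% had an unadjusted p under 0.05, 1.91% lower and 1.7% higher. Among the other GABA transporters and enzymes, 3 of 7 tested were fitted higher and 4 lower (median log2 fold change -0.17). Slc6a6, a taurine transporter, had a log2 fold change of -0.32 (SE 0.22). Aldh5a1, the dehydrogenase that follows GABA transaminase, had one of -0.29 (SE 0.22).

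In the list of glutamate and glutamine supply, 4 of 15 tested genes were fitted higher and 11 lower (median -0.24). Slc1a1, the neuronal glutamate transporter EAAC1 that brings in precursor for GABA, had 31.9 in NX, 19.1 in NY, 20.09 in QT and 30.8 CPM in RM in knockout libraries, against 66.4 in NX, 33.0 in NY, 32.9 in QT and 38.7 CPM in RM in control libraries. Its genotypes did not overlap, as for 1.46% of all genes tested in that direction, and the log2 fold change was -0.75 (SE 0.30, edgeR unadjusted p = 0.0258, adjusted p = 1.00). Slc1a4, a neutral amino acid transporter, had a log2 fold change of -0.39 (SE 0.25), and Slc38a2, a neutral amino acid transporter that carries glutamine and the highest of the list per length, 0.37 (SE 0.26).

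In the vesicle filling list, 5 of 12 tested genes were fitted higher and 7 lower (median -0.08). Slc18a2, the vesicular monoamine transporter VMAT2, averaged 56.7 ± 39.1 CPM in knockout and 28.8 ± 4.44 CPM in control libraries (SD, n = 4 each; log2 fold change 0.97, SE 0.43, edgeR unadjusted p = 0.0430). The highest library (109 CPM, QT) and the lowest (NX) were both knockouts. Atp6v0c, a proton pump subunit, was the highest of the list per length, with a log2 fold change of -0.27 (SE 0.20).

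Of the other SLC12 carriers, 3 of 5 tested were fitted higher and 2 lower (median 0.03). Slc12a7, which encodes the potassium-chloride exporter KCC4, had a log2 fold change of 0.28 (SE 0.63) and Slc12a8 one of 0.41 (SE 0.76). Among carrier regulators and other chloride routes, 8 of 24 tested genes were fitted higher and 16 lower (median -0.15). Stk39, the SPAK kinase that activates NKCC1 and restrains KCC2, had 46.5 in NX, 23.6 in NY, 50.2 in QT and 30.9 CPM in RM in knockout libraries, against 20.5 in NX, 19.4 in NY, 31.3 in QT and 23.6 CPM in RM in control libraries. It was higher in the knockout in every prefix (log2 fold change 0.67, SE 0.29, edgeR unadjusted p = 0.0368), with overlap between genotypes. How many of all genes tested were higher in every prefix was not counted. Slc4a8, a sodium-driven chloride-bicarbonate exchanger, averaged 73.3 ± 14.4 CPM in knockout and 102 ± 18.4 CPM in control libraries (-0.48, SE 0.22, unadjusted p = 0.0486). Ckb, brain creatine kinase, was the highest of the list per length, at -0.45 (SE 0.29).

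**Figure D5:**
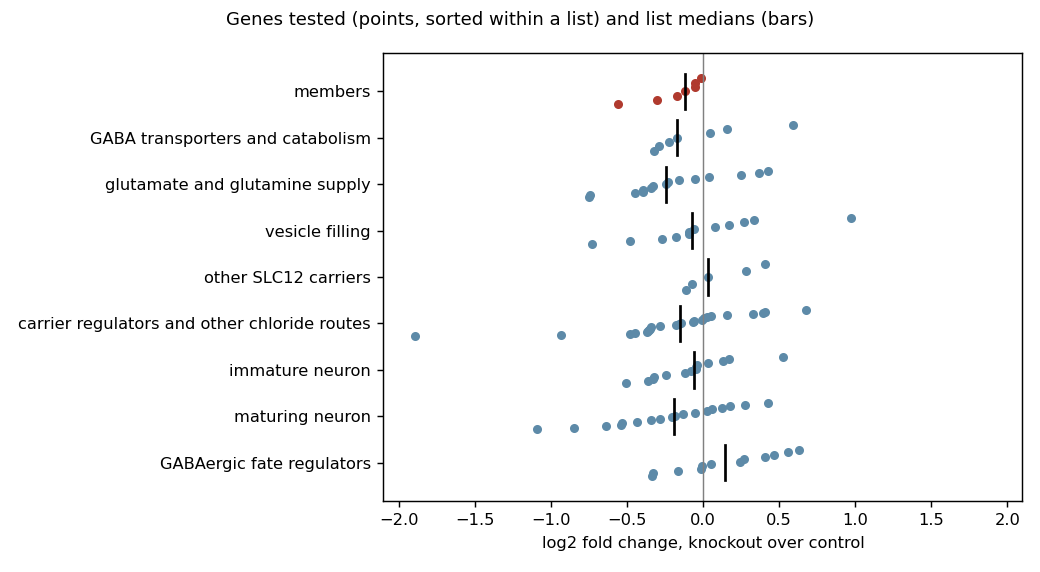
Log2 fold change, knockout over control, of every gene tested in each list (points) with the median of the list (black bar); the 7 members are red. Every list median lies between -0.24 and 0.15.

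Lists of neuronal maturity were examined beside the chloride carrier ratio. None of 14 immature neuron genes and none of 18 tested maturing neuron genes passed. In the first list 4 were fitted higher and 10 lower (median -0.06), and in the second 6 higher and 12 lower (median -0.19). Stmn1, a microtubule regulator and the highest immature gene per length, had a log2 fold change of -0.08 (SE 0.22), Igfbpl1 -0.32 (SE 0.20) and Nes, the progenitor filament nestin, -0.51 (SE 0.36). Stmn2, the highest maturing gene per length, had one of 0.18 (SE 0.21). Eno2, neuronal enolase, averaged 16.6 ± 2.16 CPM in knockout and 29.8 ± 12.7 CPM in control libraries (-0.85, SE 0.31, unadjusted p = 0.0172). Kcnc1, the potassium channel Kv3.1, averaged 63.8 ± 13.9 CPM in knockout and 92.6 ± 12.6 CPM in control libraries (-0.54, SE 0.21, unadjusted p = 0.0241). Both were lower in 4 of 4 prefixes, as were 8.49% of all genes tested, and neither passed. Of the other maturing genes, Syt1, Thy1 and Gria1 were lower in every prefix and Map2 was higher in every prefix (0.28, SE 0.22). Of the immature genes, Sox4, Cd24a and Nes were lower in every prefix, and Dcx, Nrep and Dpysl3 were higher in every prefix. The share of all genes tested that were higher in every prefix was not counted. Of 12 GABAergic fate regulators, 7 were fitted higher and 5 lower (median 0.15), with Dlx5 at -0.33 (SE 0.25) and Sp8 at 0.47 (SE 0.36).

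The genes whose log2 CPM followed each member most closely over the 8 libraries were ranked among 9359 others by Pearson's r, as a description with no test, since the libraries share prefixes and depth. Slc6a11 was followed by Sparcl1 (0.98), a secreted protein made largely by astrocytes, and Slc12a5 by Prnp (0.98), the prion protein gene. Slc12a2 was followed by Rbfox1 (0.97), a neuronal splicing factor, then Usp7 (0.97) and Usp33 (0.97), both deubiquitinases. Gad2 was followed by Slc7a6 (0.97), an amino acid transporter, Gad1 by A930011O12Rik (0.97), Abat by Pdp2 (0.95), a phosphatase of pyruvate dehydrogenase, and Slc32a1 by Sik3 (0.94), a kinase. No member was among the 3 closest genes of another.

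In GRCm38, 4 of the 7 genes lie on the plus strand of chromosome 2: Gad2 (22622205 to 22693874), Gad1 (70553072 to 70602014), Slc32a1 (158610767 to 158615748) and Slc12a5 (164960802 to 164999731). Slc6a11 lies on chromosome 6 (114131241 to 114249952), Abat on chromosome 16 (8513429 to 8621568) and Slc12a2 on chromosome 18 (57878678 to 57946821), all on the plus strand and protein-coding. No other annotated gene overlapped exons of the 6 members besides Slc32a1. Expected counts were whole, within 0.005 of an integer, in 8 of 8 libraries for Slc32a1, Slc6a11 and Slc12a2 and in 7, 5 and 4 of 8 for Gad1, Abat and Slc12a5. Those of Gad2 were whole in 0 of 8, as happens when fragments are shared between rows.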

How the data were processed

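Read trimming with Trimmomatic 0.33, Bowtie2, and RSEM 1.2.22 on build mm10 are named per the submitters' processing notes, with the Bowtie2 version and gene annotation not given in the sources used here. The deposited tables hold, per the file headers, RSEM expected counts (estimated fragments per gene, which need not be whole), TPM, FPKM and gene length; FPKM was not used. TPM is scaled within a library and carries no depth. Matrices and sample files were identical in 16 columns. The amplification and library kits named in the labels do not state strand.

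Expected counts were rounded and tested with edgeR 4.0.16 (R 4.3.3): filterByExpr (14157 of 32543 genes kept), TMM, quasi-likelihood test of knockout against control with genotype alone, Benjamini-Hochberg over all genes, called under 0.05. SEs and intervals come from the quasi-likelihood F. The procedure was tested on simulated counts with no prefix effect and with changes larger than any fitted for the members. Its power for the members was not measured. The series text speaks of triplicates, but 4 libraries per genotype are labelled and all were used. Each library is a pool, and nothing states independent litters, so p-values measure the spread between these pools. Ratios were tested by exact permutation (70 assignments; smallest possible p 0.0286). Likeness used log2 CPM (prior count 2) of genes averaging at least 3. The members, lists and naming rule were chosen with earlier results of these data known. From each list, called genes or else the 2 of smallest p were named, plus the most abundant per length (some items are not reported here); lists hold genes from general knowledge. Alternatives changed composition factors, filter, test (DESeq2 1.42.0, limma 3.58.1), unit, prefix block and libraries.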

Additional observations from a re-analysis of the deposited data

Results flagged for a closer look

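Among 32 groups of 4 libraries (the CPM and TPM of each gene and the TPM ratios, by genotype), 1 held a library set far apart from the other 3 by Dixon's criterion. This was Slc12a2 in control libraries, where NX stood at 164 CPM and the other 3 lay between 93.6 and 105 CPM. Its gap to the nearest library was 0.836 of the whole range, above the 95% critical value for 4 samples. Chance alone marks about 1 in 20 groups. The knockout NX library was also the highest of its genotype, at 179 CPM, but was not set apart by this criterion. Without the control NX library the log2 fold change of Slc12a2 was 0.21.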

How the results depend on the processing

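Over 21 other fits, 0 of the 7 genes and 0 of the other pathway genes passed in any. Slc32a1 and Abat kept a lower fit in 21 of 21, from -0.66 to -0.46 and from -0.50 to -0.20. Slc32a1 had an unadjusted p under 0.05 in 15 of 21 (0.0117 to 0.123), and its adjusted p ran from 0.499 to 1.00. It was above 0.05 without knockout NY (0.0716), control QT (0.0670), both NY (0.116) or both QT libraries (0.0734) and with TPM plus 1 (0.123) or plus 0.1 (0.121), but 0.0353 with TPM rescaled without the 3 dominant rows, a setting chosen after seeing the data.

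The sign of the other 5 depended on the libraries, and the cause was not tested. Leaving out 1 library gave log2 fold changes from -0.31 to 0.13 for Gad1, -0.23 to 0.021 for Gad2, -0.85 to 0.27 for Slc6a11, -0.33 to 0.21 for Slc12a2 and -0.43 to 0.22 for Slc12a5. Without both libraries of a prefix the sign turned for Gad1 (0.11, NX), Slc12a2 (0.015, NY; 0.085, RM) and Slc6a11 (0.19, NY; 0.23, QT; also 0.051 with limma-voom). The log2 difference of the Slc12a2 to Slc12a5 ratio ran from -0.38 to 0.46 with 1 library left out and turned to -0.22 without both NX and -0.039 without both NY libraries. That of Gad2 to Gad1 ran from -0.29 to 0.32 and turned to 0.093 without both QT and 0.16 without both RM libraries. The lowest exact p was 0.486 for the first and 0.343 for the second.

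Of all genes, 5 were called, against 9 without composition factors, 19 without a filter, 39 by DESeq2, 2 by limma-voom and 10 on log2(TPM + 1). Leaving out 1 library gave 0 to 5 calls (328 to 905 at an unadjusted p under 0.05), leaving out NX gave 3, and leaving out NY, QT or RM gave 0 (430, 262 and 470 unadjusted). A replicate block on the title prefix gave 28 calls, and the log2 fold change of Slc32a1 was -0.56 (edgeR, adjusted p = 0.499). Deviations of same-prefix libraries correlated across genes at 0.385 (NX), 0.303 (NY), 0.0658 (QT) and 0.450 (RM), where the highest correlation with another prefix was 0.0430, -0.0047, 0.0720 and 0.0753. Same-prefix libraries thus deviated together in NX, NY and RM, but not in QT. The labels do not say what a prefix marks, and the fit without the block was kept. The SEs and intervals given for the members therefore take no account of the prefix. With the block, the unadjusted edgeR p was 0.0127 for Slc32a1 and 0.0926 for Abat. For the other members it ran from 0.480 (Gad2) to 0.881 (Slc6a11). Under the block, 1013 genes had an unadjusted p under 0.05, against 512 without it. Slc6a11 rested on 26 to 337 counts per library and Slc12a5 on 117 to 323.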
